A study of Mus musculus with 4 samples.

Results

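The cells described here are thymocytes that carried UMIs of a Notch-driven early T cell program and almost none of the coreceptor genes, and they are called DN-like cells after the CD4/CD8 double negative (DN) stage. A UMI (unique molecular identifier) marks 1 captured transcript. The cells were chosen by their own counts: among cells with at least 200 genes, at least 2000 UMIs and at most 10% mitochondrial UMIs, a cell entered when Il2ra, Dtx1, Hes1, Erg, Mpzl2 and Notch3 summed to 4 or more UMIs, Cd4 and Foxp3 were at 0, and Cd8a and Cd8b1 together had 3 UMIs or fewer. In all, 505 of 29032 kept cells met the rule (1.74%), and the other 28527 kept cells are the reference. Since the 10 genes of the rule selected the cells, their levels are given as a description with no test.

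In the thymus, early progenitors meet Notch ligands on the epithelium, and the cleaved receptor enters the nucleus and switches on target genes together with the DNA-binding protein RBPJ. DN cells then pass from a Kit-positive progenitor stage (DN1 and DN2) to the DN3 stage, in which the recombinase joins the T cell receptor β, γ and δ genes. A productive β chain pairs with the pre-T α chain encoded by Ptcra, and this pre-TCR drives a burst of division (β-selection) that leads to the CD4+CD8+ double positive (DP) stage.

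Thymocytes came from 2 control and 2 cKO mice. Per the labels the control genotype is Tox4;F/F and the cKO genotype is Tox4;F/F;Lck+, so that both groups carry floxed Tox4 alleles and the cKO mice also carry an Lck-Cre transgene. As the study describes them, the recombinase is driven by the proximal Lck promoter and is active from the DN3 stage on, and the mice were gender-matched littermates of 6 to 8 weeks. Cells earlier than DN3 in the cKO libraries may therefore still carry an intact gene. The number after control or cKO is the replicate number that the labels give. Single cells were captured with the 10x Genomics 3′ kit, in which only the 3′ end of each transcript is read.

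The 4 matrices held 57354 cells and between 42716798 and 62007453 UMIs each, and 5414 to 9491 cells per library passed the 3 quality filters. Over 10% mitochondrial UMIs were found in 48.3% (control 1), 20.6% (control 2), 46.1% (cKO 1) and 23.1% (cKO 2) of all cells. The filters on genes and UMIs removed 3156 to 8646 cells per library, and the mitochondrial limit then removed 649 to 996 more. Between 5 and 20 barcodes of kept cells were shared by any 2 libraries, and no barcode of a DN-like cell was. Tox4 (chromosome 14, 52279146 to 52296401, GRCm38) is the floxed gene. In the DN-like cells it had 43.8 and 81.4 CPM (the UMIs of a gene scaled to an equal UMI total of the summed cells) in the controls and 41.4 and 71.2 CPM in the cKO libraries. The groups overlapped, and the log2 fold change was −0.20 (SE 0.25, edgeR adjusted p = 0.974). The reads come from the 3′ end, outside the floxed exons, so this level does not check the deletion.

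**Figure D1:**
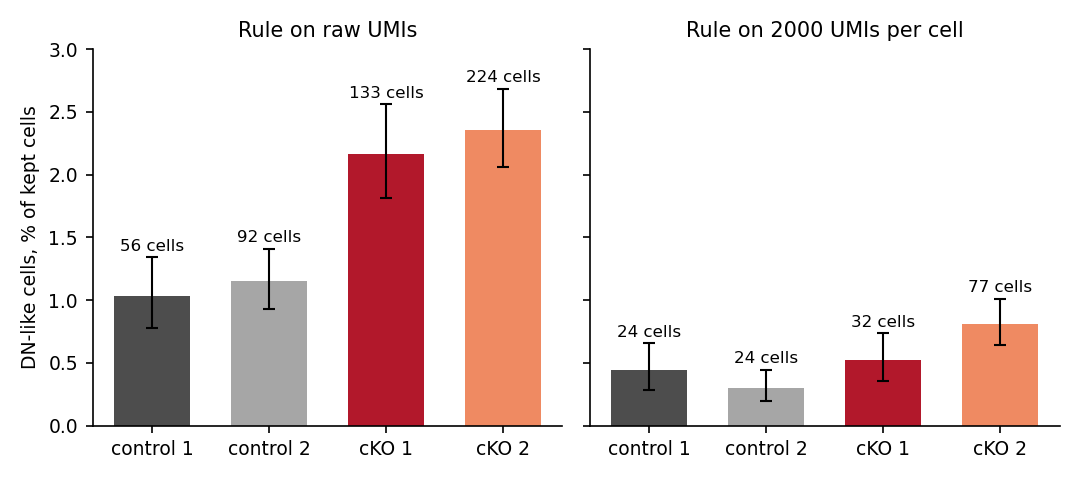
Share of kept cells that met the rule in each library, on raw UMIs (left) and after every cell was reduced at random to 2000 UMIs (right). Bars show the share in percent, lines the exact 95% binomial interval, and the number above each bar the cells. Both cKO libraries (2.17% and 2.36%) stand above both controls (1.03% and 1.15%), and the levels are lower at equal depth.

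DN-like cells made up a larger share of both cKO libraries than of either control. In control 1, 56 of 5414 kept cells were DN-like (1.03%, exact 95% binomial interval 0.782 to 1.34), and in control 2, 92 of 7985 were (1.15%, 0.930 to 1.41). In cKO 1, 133 of 6142 cells were DN-like (2.17%, 1.82 to 2.56), and in cKO 2, 224 of 9491 were (2.36%, 2.06 to 2.69). The intervals cover counting error only. The cKO mean exceeded the control mean by 1.17 percentage points, the 2 groups did not overlap, and the two-sided exact permutation test gave p = 0.333, the smallest value that 2 against 2 libraries allow. Per 100 cells with UMIs of Cd4 and of Cd8a or Cd8b1, there were 1.38 and 1.66 DN-like cells in the controls and 3.39 and 3.77 in the cKO libraries.

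Depth entered the rule, because a deep cell reaches 4 marker UMIs more easily. The median DN-like cell had 10751, 11028, 11117 and 8176.5 UMIs in control 1, control 2, cKO 1 and cKO 2, against 3869.5, 3219, 3999 and 3115 in the other cells. When every cell was reduced to 2000 UMIs, 24 cells of each control and 32 and 77 cells of cKO 1 and cKO 2 met the rule, or 0.443%, 0.301%, 0.521% and 0.811%. The order of the groups stayed, and the difference fell to 0.294 percentage points. Of these cells 17 and 18 in the controls and 27 and 66 in cKO 1 and cKO 2 also met the rule on raw UMIs. The rest were left out on raw UMIs for their Cd4, Foxp3 or Cd8 UMIs. Within one range of depth, 4000 to 8000 UMIs, the shares were 0.712% and 1.12% in the controls and 1.66% and 4.89% in the cKO libraries. Between 8000 and 16000 UMIs they were 3.57% and 5.15% in the controls and 6.56% and 6.82% in the cKO libraries. From 16000 UMIs on the groups overlapped, with 4.97% and 8.93% in the controls and 8.59% and 9.51% in the cKO libraries, and between 2000 and 4000 UMIs the share was 0.107% and 0% against 0.0997% and 0.102%.

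The line of the rule had cells close to it on both sides. Of all 808 cells with 4 or more marker UMIs, 212 had a Cd4 UMI, 21 a Foxp3 UMI and 181 more than 3 Cd8a and Cd8b1 UMIs. There were 46 DN-like cells with exactly 4 marker UMIs, and 54 cells that met every other condition had 3. Il2ra, whose UMIs enter the sum, stood at 115 CPM in the cells just inside and at 57.7 CPM in those just outside. Ptcra, outside the rule, stood at 167 and 58.9 CPM, with 165 CPM in all DN-like cells and 52.3 CPM in the other cells. Of the 505 cells, 366 (72.5%) had UMIs of at least 3 of the 6 markers, and 28 had UMIs of only 1 of them.

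Among the rule's own genes, Il2ra (the interleukin 2 receptor α chain CD25, which marks DN2 and DN3) was the most abundant, with 431 and 296 CPM in the DN-like cells of the controls and 386 and 414 CPM in those of the cKO libraries. The other cells had 12.2 to 14.98 CPM of it. Hes1, a repressor induced by Notch, had 276 and 259 CPM in the controls and 212 and 310 CPM in the cKO libraries. Notch3, a Notch receptor that is itself induced by Notch, had 105, 84.3, 67.5 and 117 CPM in control 1, control 2, cKO 1 and cKO 2. Mpzl2, a cell adhesion protein, had 57.0, 77.0, 45.5 and 90.4 CPM. Dtx1, an E3 ligase of the Notch pathway, had 31.8, 39.2, 34.8 and 33.5 CPM. Erg, an ETS transcription factor of progenitors, was the lowest, with 11.8 to 22.5 CPM. For each of these 6 genes the control and cKO libraries overlapped.

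Genes that the rule did not use also set the DN-like cells apart from the other cells in the same library. These ratios come from the same cells that the rule selected, so they carry no test. Notch1, the main Notch receptor of the early thymus, had 350 to 427 CPM in DN-like cells and 76.0 to 122 CPM in the other cells. Ptcra had 149 to 227 CPM against 41.6 to 63.5. Hes5, another Notch-induced repressor, had 6.64 to 9.28 CPM against 1.10 to 2.35. Runx1, a T-lineage transcription factor, had 287 to 367 CPM against 137 to 158. Trac, the constant region of the T cell receptor α chain that is joined at the DP stage, had 26.9 to 30.7 CPM against 380 to 583. Rag1, a recombinase subunit, was lower in the DN-like cells as well, with 166 to 320 CPM against 670 to 964. The DP-stage genes Rmnd5a and Bcl6 and the adhesion receptor Cd2 were also lower in DN-like cells in each library, Cd2 with 10.2 to 16.0 CPM against 183 to 227. Summed over the DP stage list, DN-like cells had 877 to 1036 CPM against 2024 to 2499 CPM, although its member Arpp21 was at 612 to 747 CPM against 673 to 777 CPM and was not lower in control 1. The summed T-lineage transcription factors were lower than in the other cells of each library (3172 to 3810 CPM against 4581 to 4978), and so was the list of other Notch targets (804 to 1139 CPM against 1028 to 1225), in which Tcf7 had 427 to 606 CPM against 885 to 1077. Genes outside the rule thus lay on both sides of what the label of an early, Notch-driven cell names.

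The promoter of Ptcra is shown because this gene is the best known Notch-responsive gene of the pre-TCR stage and was not part of the rule. The 250 bases before its start (GRCm38, chr17:46763713-46763962, minus strand, from RefSeq) hold 2 copies of TGGGAA, the core of the sequence that RBPJ binds, printed in capitals.
Ptcra: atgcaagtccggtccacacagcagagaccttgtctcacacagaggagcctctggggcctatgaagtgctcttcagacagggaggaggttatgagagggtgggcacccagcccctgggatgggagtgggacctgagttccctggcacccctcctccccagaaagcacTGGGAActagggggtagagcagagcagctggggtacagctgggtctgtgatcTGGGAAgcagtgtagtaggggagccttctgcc
TGGGAA or its reverse complement TTCCCA occurred in 21.6% of the 32851 promoter windows of this length, and 2.77% held 2 or more. Of the 6 marker genes 4 had windows in the table, 6 windows in all, and 1 of them, upstream of an Erg start, held the motif. A match is a description of the letters and not of a bound site.

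**Figure D2:**
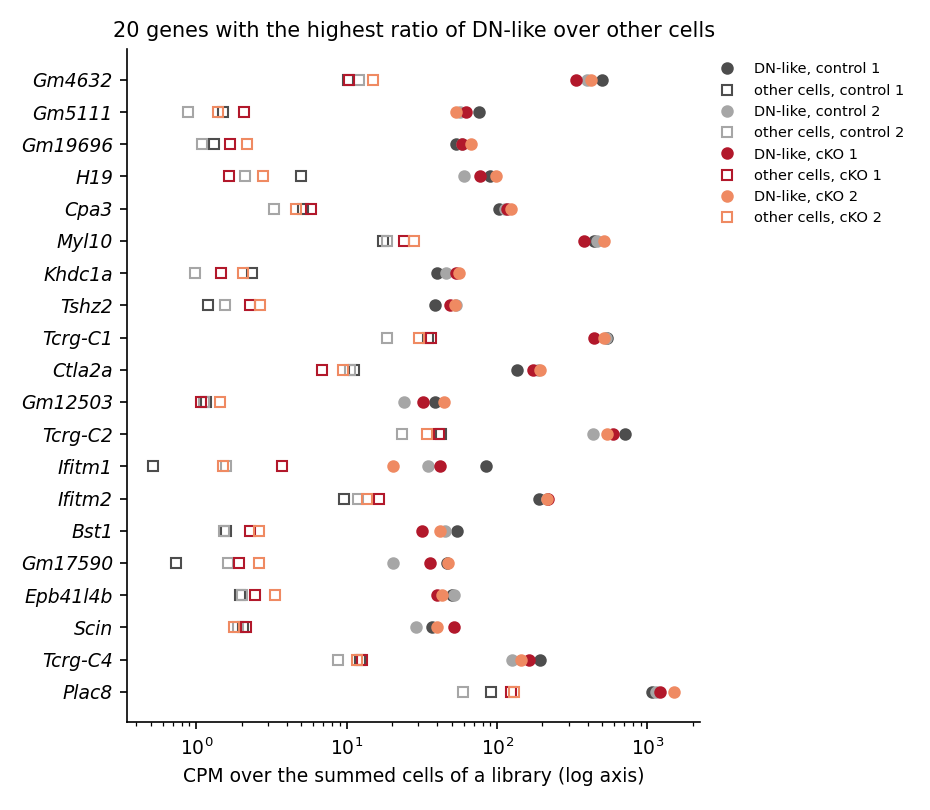
The 20 genes with the highest mean log2 ratio of DN-like over other cells, among 5140 genes of at least 20 CPM in the DN-like cells of every library and without the genes of the rule. Filled circles are DN-like cells, open squares other cells, colours the 4 libraries, and the axis is CPM on a log scale. For each gene the 4 DN-like values stand above the 4 values of other cells.

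The 20 genes outside the rule with the highest ratio over other cells, shown in the plot of leading genes, were led by Gm4632, with 336 to 499 CPM in DN-like cells and a mean log2 ratio of 5.01 (range over the libraries 4.74 to 5.48). They held 3 constant regions of the T cell receptor γ chain, whose loci are open in DN cells and γδ T cells. Tcrg-C1 had 438 to 536 CPM (mean log2 ratio 4.07), Tcrg-C2 437 to 704 CPM (3.99) and Tcrg-C4 126 to 192 CPM (3.67). These regions are close copies of each other, so the split of UMIs between them is uncertain. The imprinted growth gene H19 had 60.3 to 98.1 CPM (4.46) and Cpa3, a protease of progenitors and mast cells, had 103 to 124 CPM (4.36). Myl10, a myosin light chain gene, had 378 to 517 CPM (4.31), and Plac8 was the most abundant of the 20, with 1075 to 1495 CPM (3.65). Of the 5140 genes, 1588 were higher in DN-like cells in each of the 4 libraries, and 27 were more than 8-fold higher in each.

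**Figure D3:**
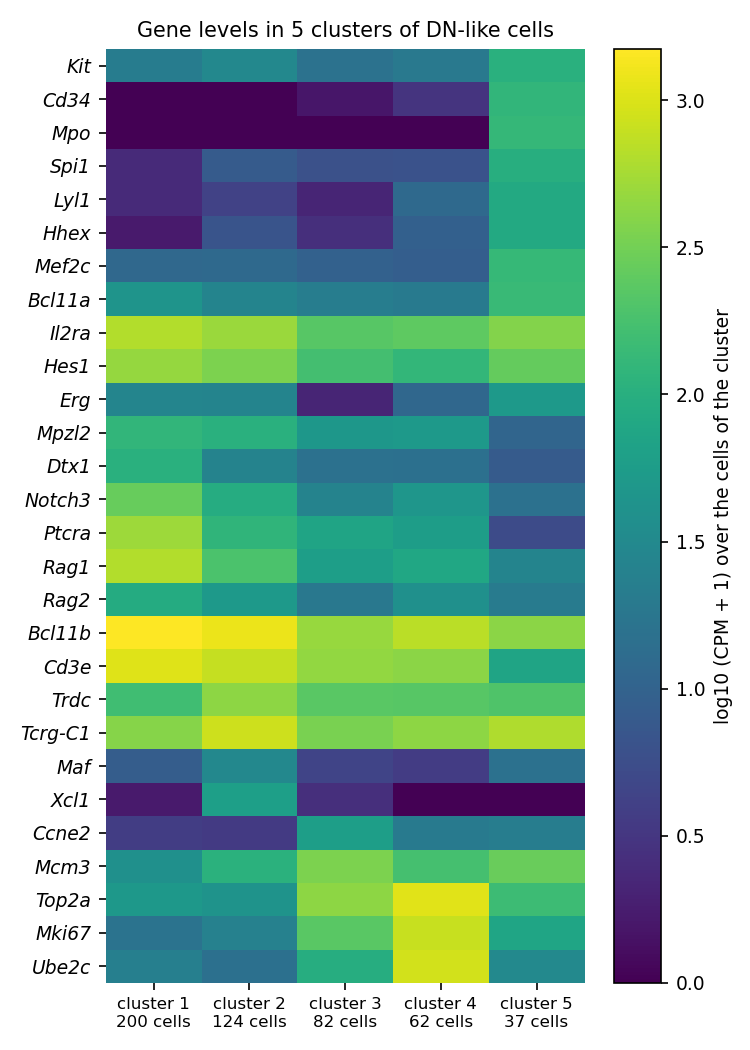
Levels of 28 genes in 5 Leiden clusters of the 505 DN-like cells. Colour gives log10 of CPM + 1 over the summed cells of a cluster, and cell numbers stand below. Rag1, Ptcra and Notch3 are highest in cluster 1, Tcrg-C1 and Trdc in cluster 2, Ccne2 and Mcm3 in cluster 3, Ube2c and Mki67 in cluster 4, and Cd34, Mpo, Spi1 and Lyl1 in cluster 5. The Xcl1 level of cluster 2 comes from 1 cell.

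The DN-like cells fell into 5 clusters, each found in all 4 libraries. The largest, of 200 cells, was led by Gm12503, H19 and Slc5a9, followed by Rag1 at 644 CPM and Ptcra at 507 CPM, and it had Notch3 at 271 CPM. A second, of 124 cells, had 304 CPM of the survival factor Bcl2, against 117 CPM in the rest, and the highest levels of Trdc (435 CPM) and Tcrg-C1 (849 CPM), the δ and γ constant regions. A cluster of 82 cells had H2-Ab1 first (97.0 CPM against 12.6 CPM in the rest, with a UMI in 31.7% of its cells, and with the 1 cell that held 129 of the 153 H2-Ab1 UMIs of control 2) and then S-phase genes such as Ung, Ccne2 and E2f1, and one of 62 cells was led by genes of mitosis such as Ube2c (909 CPM), Cenpf and Nusap1. The smallest, of 37 cells, carried stem and progenitor genes: Cd34 at 121 CPM, Mpo at 130 CPM, Spi1 at 97.0 CPM, Mef2c at 131 CPM and Kit at 103 CPM, with Ptcra at 4.28 CPM. The leading genes were used to form the clusters and are not results. The median UMI count ran from 7098 in the first cluster to 23770 in the mitotic cluster.

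The comparison of cKO with control DN-like cells asks which genes differ between the genotypes, whether or not each cell had lost Tox4. UMIs of the DN-like cells were summed per library (754072 and 1376692 UMIs in the controls, 1956568 and 2599433 in the cKO libraries) and tested with the edgeR quasi-likelihood test, and a gene is called at an adjusted p under 0.05. Of 9163 genes tested, 14 were higher (0.153%) and 8 lower (0.0873%) in cKO, and 550 had an unadjusted p under 0.05. Both cKO libraries stood above both controls for 15.7% of the genes tested and below both for 18.8%. The number of calls moved with the cells that were summed: edgeR called 0 genes without the 2.5% of cells with the most UMIs (470 at an unadjusted p under 0.05), without cells holding Trdc UMIs (244) and at equal cells and UMIs per library (358), and the DESeq2 Wald test called 5. In the first 3 of these settings 21, 12 and 18 of the 22 called genes could be tested, and none of them turned direction. At 6 marker UMIs or more 21 genes were higher and 1 lower, with 14 of the 22 shared. Without control 1 the count was 89 (40 higher, 49 lower), without cKO 1 it was 34 and without cKO 2 it was 70. Without control 2 it was 26, of which 9 were among the 22, and H2-Aa went from −3.57 to −0.66. The higher genes were mostly genes of mitosis. The lower genes held 3 MHC class II chains and the invariant chain Cd74, and for 7 of the 8 over 40% of the UMIs in a control library came from 1 cell.

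**Figure D4:**
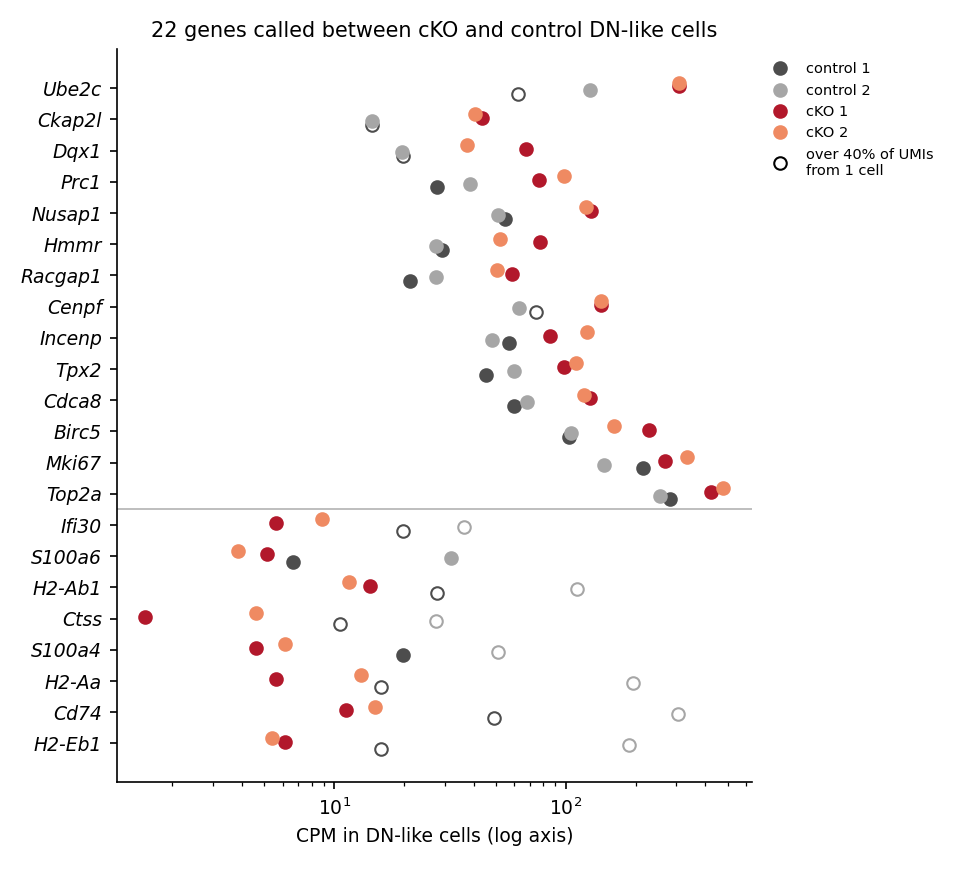
CPM of the 22 called genes in the DN-like cells of each library, on a log axis, ordered by log2 fold change. Genes above the grey line were higher and those below it lower in cKO. Open circles mark a library in which 1 cell gave over 40% of the gene's UMIs: this held for 4 of the 14 higher genes and 7 of the 8 lower genes, in control libraries.

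Ube2c, the ubiquitin-conjugating enzyme of the anaphase-promoting complex, had the largest rise among the called genes. It had 62.3 and 127 CPM in the controls and 309 and 308 CPM in cKO (log2 change 1.63 with SE 0.19 and adjusted p = 6.44e-05). The controls rest on few UMIs, 47 and 175, of which 59.6% and 37.7% came from 1 cell each. In the cKO libraries the highest cell gave 13.2% of 605 and 8.11% of 801 UMIs.

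Genes of the spindle and the chromosomes rose with it. Nusap1, a spindle-associated protein, had 54.4 and 50.8 CPM in the controls and 129 and 122 CPM in cKO (log2 change 1.27 with SE 0.17 and adjusted p = 0.000343). Cenpf, a kinetochore protein, had 74.3 and 62.5 CPM against 142 and 141 CPM (log2 change 1.08 with SE 0.17 and adjusted p = 0.00117). Prc1, which bundles microtubules in the central spindle, had 27.8 and 38.5 CPM against 76.7 and 98.1 CPM (log2 change 1.36 with SE 0.22 and adjusted p = 0.00178). For each of these genes both cKO libraries lay clear of both controls. Of the Cenpf UMIs, 44.6% of 56 in control 1 and 37.2% of 86 in control 2 came from 1 cell each. Top2a, the topoisomerase that untangles chromosomes, had 281 and 255 CPM against 424 and 477 CPM (log2 change 0.77 with SE 0.12 and adjusted p = 0.00199). Mki67, the proliferation marker Ki-67, had 216 and 147 CPM against 267 and 335 CPM (log2 change 0.78 with SE 0.16 and adjusted p = 0.0219). It was also called higher in the other cells (log2 0.56, edgeR adjusted p = 0.0491). The difference between the 2 changes of Mki67 was not called (0.26, edgeR adjusted p = 0.614). Among the 34 cells with no UMI of a non-T list, Top2a and Mki67 each lay at −0.36. These were 7 and 4 cells of the controls and 5 and 18 cells of cKO 1 and cKO 2. The filter also removes cells with a UMI of Epcam, which 39.7% to 58.9% of the DN-like cells of a library held.

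Components of the chromosomal passenger complex, which corrects the attachment of chromosomes, were called as well. Birc5 had 103 and 105 CPM in the controls and 227 and 162 CPM in cKO (log2 0.90), Cdca8 59.7 and 68.3 CPM against 127 and 119 CPM (0.93), and Incenp 57.0 and 47.9 CPM against 85.4 and 123 CPM (1.04). Outside the cycling clusters Birc5 (−0.10), Cdca8 (−0.37) and Tpx2 (−0.16) lay below 0. The remaining higher genes were Tpx2 (0.96) and Hmmr (1.18), both of the spindle, Ckap2l (1.53), a mitotic spindle protein, Racgap1 (1.11), which acts in cytokinesis, and Dqx1 (1.38), a helicase-like gene. Ckap2l had 11 and 20 UMIs in the controls, of which 54.5% and 30.0% came from 1 cell each. Dqx1 had 19.9 and 19.6 CPM in the controls and 67.0 and 37.3 CPM in the cKO libraries, and 60.0% of its UMIs in control 1 came from 1 cell. In the other cells its log2 change was 0.85 (edgeR adjusted p = 0.151). The difference between its changes was not called (edgeR adjusted p = 0.736).

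Promoters of Ube2c, Top2a and Hmmr are shown because these genes were called together and their windows hold the most copies of CCAAT, the sequence that the factor NF-Y binds and that is common in promoters of mitosis genes. Capitals mark CCAAT and its reverse complement ATTGG, which may overlap, in the 250 bases before the start (GRCm38, from RefSeq). Ube2c lies at chr2:164769679-164769928 on the plus strand, Top2a at chr11:99024190-99024439 on the minus strand and Hmmr at chr11:40733438-40733687 on the minus strand.
Ube2c: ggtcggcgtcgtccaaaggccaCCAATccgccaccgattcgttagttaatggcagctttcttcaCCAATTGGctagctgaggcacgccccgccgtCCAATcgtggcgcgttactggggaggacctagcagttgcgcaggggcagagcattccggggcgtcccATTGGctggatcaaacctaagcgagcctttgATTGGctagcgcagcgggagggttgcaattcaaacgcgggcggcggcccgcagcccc
Top2a: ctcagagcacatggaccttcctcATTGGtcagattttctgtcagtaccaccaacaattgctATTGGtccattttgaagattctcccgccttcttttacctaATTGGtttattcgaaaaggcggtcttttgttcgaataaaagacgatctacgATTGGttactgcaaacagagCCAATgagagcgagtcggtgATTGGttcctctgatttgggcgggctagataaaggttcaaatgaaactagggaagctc
Hmmr: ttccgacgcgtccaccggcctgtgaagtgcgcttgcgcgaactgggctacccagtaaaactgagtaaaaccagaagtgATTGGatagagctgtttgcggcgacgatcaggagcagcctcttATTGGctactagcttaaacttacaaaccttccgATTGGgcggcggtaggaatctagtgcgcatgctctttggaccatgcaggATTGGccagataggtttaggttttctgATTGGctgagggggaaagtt
The 14 higher genes had 12 windows of 11 genes in the table. Of these windows 10 held CCAAT on either strand and 7 held 2 or more, whereas 33.8% of all 32851 windows held it and 10.1% held 2 or more. Nusap1 and Birc5 held none.

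The G2/M gene list that comes with the software Seurat leaned one way. All 54 of its genes had a log2 fold change above 0, with a median of 0.55 against −0.01 over all genes tested. Of these genes 10 were called, all higher (0.153% of all genes were), and for 45 of 54 both cKO libraries stood above both controls (15.7% of all genes). DESeq2 called 3 of them, and edgeR called 18 without cKO 2. Without the top 2.5% of cells by UMIs, without Trdc cells and at equal cells and UMIs 0 were called, with medians of 0.64 (47 of 50 genes above 0), 0.79 (33 of 34) and 0.37 (44 of 49). Among the 34 cells with no non-T UMI, 4 of 9 G2/M genes tested were above 0 (median −0.14). Among cells at or under the median of cell cycle UMIs, a filter that uses these genes, 14 of 21 were (0.07). Summed over the list, DN-like cells had 5803 and 5641 CPM in the controls and 8410 and 7982 CPM in the cKO libraries. The S-phase list did not show this over all DN-like cells: 25 of its 43 genes were above 0, with a median of 0.04. Of these genes 0 were called (2 at an unadjusted p under 0.05, and 0 by DESeq2). The sums were 4443 and 4334 CPM in the controls against 4643 and 4170 CPM in the cKO libraries. Without the top 2.5% of cells by UMIs 38 of 42 S genes were above 0 (median 0.25), and without Trdc cells 25 of 31 (0.26). At equal cells and UMIs 6 of 42 S genes were (−0.35). In the other cells the S list was above 0 for 43 of 43 genes (median 0.28) and the G2/M list for 52 of 54 (median 0.22), with sums of the G2/M list of 9780 and 9028 CPM in the controls and 10581 and 10466 CPM in the cKO libraries.

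**Figure D5:**
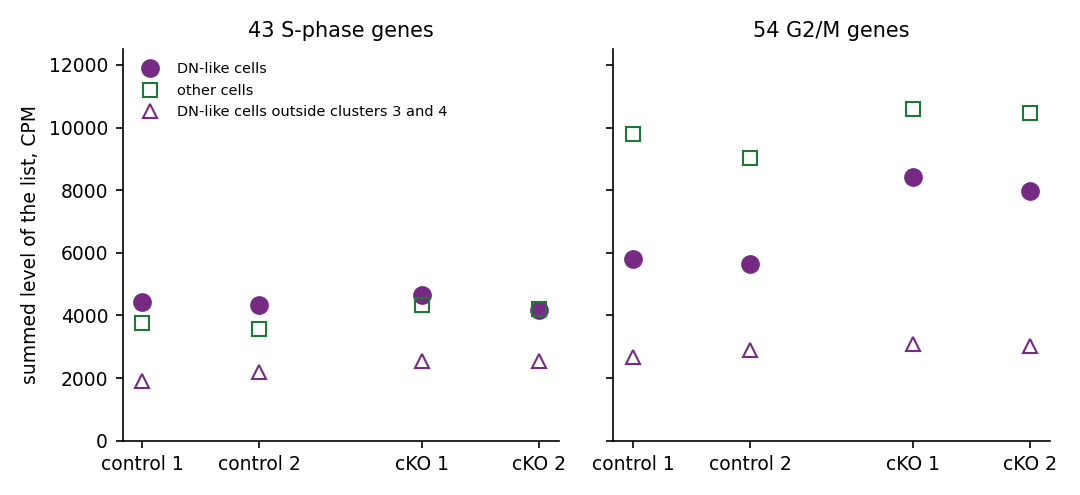
Summed CPM of the S-phase and the G2/M list in each library. Filled circles are all DN-like cells, open squares the other cells, and open triangles the DN-like cells outside clusters 3 and 4. In the DN-like cells the G2/M list is higher in both cKO libraries, whereas the S list lies between 4170 and 4643 CPM in all 4.

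The G2/M difference was smaller outside the dividing cells. Outside the clusters of S phase and mitosis (361 DN-like cells), the G2/M list had 2687 and 2903 CPM in the controls and 3077 and 3015 CPM in the cKO libraries, and the median over the 33 genes tested there was 0.13, with 23 above 0. The S list had 1905 and 2177 CPM there in the controls and 2541 and 2540 CPM in cKO 1 and cKO 2. Of the S genes tested outside these clusters, 31 of 34 were above 0, with a median of 0.34. These clusters were formed with the same genes, and over all genes edgeR called 0 there (396 at an unadjusted p under 0.05, with no other tool run). Counted per cell at 2000 UMIs, at least 10 UMIs of the G2/M list were found in 17 of 56 and 20 of 92 control cells (30.4% and 21.7%) and in 44 of 133 and 63 of 224 cKO cells (33.1% and 28.1%). These shares overlapped and were not separated (exact permutation p = 0.667). They were 28.4% and 23.0% in the other cells of the controls, 35.9% and 36.4% in those of cKO. In macrophage droplets they were 22.7% (control 1), 33.3% (control 2), 19.6% (cKO 1) and 14.8% (cKO 2), below the DN-like cells of the same library except in control 2.

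A wider measure, at least 5 UMIs of either list at 2000 UMIs, was met by nearly every cell. Among DN-like cells it held for 98.2% and 89.1% in the controls and for 95.5% and 95.1% in cKO, a difference of 1.62 percentage points (exact permutation p = 1.0), for 90.6% to 94.3% of the other cells, and for 72.7% to 85.2% of macrophage droplets. Of the 21 genes tested from the proliferation list of the study, 15 were above 0 (4437 of all 9163 were), with a median of 0.27. In the other cells 20 of them were above 0, with a median of 0.23. The 2 called in DN-like cells, against 0.153% of all genes, were Top2a and Mki67, which the G2/M list also holds. Ccnb1, a mitotic cyclin, had 39.8 and 50.1 CPM in the controls and 81.3 and 79.6 CPM in the cKO libraries, and missed the threshold (adjusted p = 0.0882). Cdk1, its kinase, had 54.4 and 83.5 CPM against 135 and 110 CPM (adjusted p = 0.1004).

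The lower genes were Cd74, H2-Eb1, H2-Aa, H2-Ab1, Ifi30, Ctss, S100a4 and S100a6, the first 6 of which serve antigen presentation on MHC class II in B cells, dendritic cells and macrophages. Cd74, the invariant chain, had 49.1 and 305 CPM in the controls and 11.2 and 15 CPM in cKO (log2 −3.83, SE 0.45, edgeR adjusted p = 6.44e-05). Of its 420 UMIs in control 2, 94.0% came from 1 cell, and of its 37 UMIs in control 1, 54.1% did. H2-Aa had 97.0% and H2-Eb1 96.9% of their control 2 UMIs in 1 cell. At 6 marker UMIs or more the log2 change of H2-Aa turned to 0.35. Over the macrophage and dendritic cell list of 10 genes, DN-like cells had 190 and 676 CPM in the controls and 71.6 and 79.6 CPM in the cKO libraries, and 1 cell gave 60.8% and 84.7% of the control UMIs. Of the 6 genes tested from this list 3 were called, all lower (0.0873% of all genes were). Among DN-like cells with under 3 UMIs of each non-T list (354 cells), 14 genes were called, all higher, and 8 of them were among the 14 above. That filter uses the UMIs of Cd74, H2-Aa and H2-Ab1 themselves, and 16 of the 22 called genes could be tested there, so it says nothing of the lower genes.

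Other cell types were traced by their markers. The B cell list had 50.4, 146, 36.8 and 38.9 CPM in control 1, control 2, cKO 1 and cKO 2, and 76.1% of the control 2 UMIs came from 1 cell. In control 1, cKO 1 and cKO 2 it was mostly Cd79b (49.1, 36.3 and 38.1 CPM). The other cells had 23.7 to 28.7 CPM of Cd79b. The erythroid and neutrophil list had 5.30, 11.6, 223 and 20.8 CPM, with 92.0% of the cKO 1 UMIs from 1 cell, against 1868 to 3023 CPM in the other cells. The thymic epithelial list had 67.6 to 106 CPM and was mostly Epcam (58.1 to 82.2 CPM, against 10.4 to 14.3 CPM in the other cells). The endothelial and fibroblast list had 58.8 to 80.9 CPM and was mostly Pecam1 (56.7 to 76.9 CPM), and the innate lymphoid and NK list had 103 to 150 CPM and was mostly Nkg7 (102 to 149 CPM), while Ncr1 and Klrb1c were at 0 in every library. Their part in the changes outside MHC class II was not tested, beyond the result without cells of non-T UMIs.

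Within the Notch pathway no tested gene was called by edgeR or by DESeq2, where 0.153% and 0.0873% of all genes were called higher and lower. Of 16 receptor and machinery genes tested (of 17 listed), 4 were above and 12 below 0, with a median of −0.12, and 0 had an unadjusted p under 0.05. Notch1 had 427 and 365 CPM in the controls and 350 and 416 CPM in cKO (log2 change −0.03 with SE 0.12 and adjusted p = 0.993). Rbpj, the DNA-binding partner, had 57.0 and 45.0 CPM against 41.4 and 50 CPM. Psenen, a γ-secretase subunit, had 119 and 118 CPM against 122 and 113 CPM, and Adam10, the protease that makes the first cut, had 65.0 and 42.9 CPM against 44.0 and 41.9 CPM.

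Of the other Notch target genes, 5 of 8 passed the filter on low counts, and each was below 0, with a median of −0.26. None was called, and 2 had an unadjusted p under 0.05. Ptcra had 227 and 174 CPM in the controls and 149 and 153 CPM in cKO (log2 change −0.37 with SE 0.15 and adjusted p = 0.621). Tcf7, a T-lineage transcription factor, had 606 and 480 CPM against 427 and 467 CPM (−0.26, adjusted p = 0.817), and Igf1r 74.3 and 58.8 CPM against 52.6 and 54.2 CPM. For these 3 genes both cKO libraries stood below both controls, as for 18.8% of all genes tested. Myc had 219 and 139 CPM against 163 and 126 CPM and the groups overlapped. Nrarp, Heyl and Hey1 were too low to be tested, with at most 5.08 CPM.

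The recombination and pre-TCR list had 14 genes tested, of which 2 were above 0, 6 lay lower in both cKO libraries (18.8% of all genes did) and 0 were called (4 at an unadjusted p under 0.05, and 0 by DESeq2), with a median of −0.13. Trbc1, a T cell receptor β constant region, had 1565 and 1435 CPM in the controls and 1095 and 1254 CPM in cKO (log2 change −0.34 with SE 0.10 and adjusted p = 0.330). Trbc2, its near copy, had 1796 and 1900 CPM against 2050 and 1817 CPM, so the split between them is uncertain. Dntt, the terminal transferase, had 1333 and 1153 CPM against 1006 and 1045 CPM, and Cd3g 2130 and 1685 CPM against 1856 and 1904 CPM. In the other cells all 14 genes of the list were below 0, with a median of −0.18.

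Early progenitor genes were tested for 9 of 12, with 1 above 0 and a median of −0.39. Bcl11a, a transcription factor of early progenitors, had 58.3 and 50.8 CPM in the controls and 37.3 and 27.3 CPM in cKO (log2 change −0.75 with SE 0.22 and adjusted p = 0.298). Kit had 15.9 and 34.1 CPM against 27.6 and 30.4 CPM. Mef2c had 13.3 and 37.0 CPM against 24.0 and 15.8 CPM, and 4 of its 10 UMIs in control 1 and 19 of its 51 in control 2 came from 1 cell each. T-lineage transcription factors were tested for 14 of 14, with 5 above 0 and a median of −0.08. Bcl11b had 934 and 737 CPM against 810 and 1003 CPM. Gata3 had 65.0 and 68.3 CPM in the controls and 101 and 87.7 CPM in the cKO libraries, and its adjusted p was 0.508.

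The remaining lists held no called gene, by edgeR or by DESeq2. β-selection response genes were above 0 for 2 of 9 tested (median −0.10), DP stage genes for 2 of 6 (−0.06) and γδ T cell genes for 3 of 9 (−0.15). Tcrg-C1 had 536 and 530 CPM in the controls and 438 and 515 CPM in the cKO libraries, and Trdc 312 and 230 CPM against 247 and 239 CPM. Cytokine receptor and STAT5 genes were above 0 for 7 of 12 (0.08), with Il7r at 145 and 131 CPM against 137 and 127 CPM, and G1 cyclins, kinases and inhibitors for 8 of 15 (0.02), with Cdk6 at 813 and 764 CPM against 715 and 841 CPM. Myc and growth genes were above 0 for 9 of 12 (0.09), with Npm1 at 2307 and 2545 CPM against 2392 and 2310 CPM. In the other cells 12 of these 12 were above 0 (0.39). Glycolysis genes were above 0 for 5 of 14 (−0.08), p53 target genes for 2 of 9 (−0.10) and interferon-stimulated genes for 5 of 9 (0.17).

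Genes of the TOX4 phosphatase complex and of transcription elongation were above 0 for 4 of 13 tested, with a median of −0.09 and no call. The catalytic subunit gene Ppp1ca had 375 and 397 CPM in the controls and 411 and 390 CPM in the cKO libraries, Ppp1cc 247 and 231 CPM against 231 and 253 CPM, and Ppp1r10, which encodes the scaffold PNUTS, 74.3 and 58.8 CPM against 61.8 and 59.6 CPM. The immediate-early genes followed the replicate number. With heat shock genes their sum was 235 and 295 CPM in control 1 and cKO 1 and 865 and 523 CPM in control 2 and cKO 2. Junb had 34.5 and 363 CPM in the controls and 40.9 and 157 CPM in the cKO libraries. The heat shock genes did not follow it: Dnajb1 had 50.4 to 55.9 CPM, and Hsph1 26.5 and 40.7 CPM in the controls against 57.2 and 45.8 CPM.

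A test of the difference between the cKO change in DN-like cells and the cKO change in the other cells called 91 of 13332 genes (0.683%), 42 with a higher and 49 with a lower change in DN-like cells. It treats the sums over DN-like cells and the much larger sums over other cells as equally variable. A limma test on 1 log2 ratio per library, chosen after seeing the data, called 0 genes (843 at an unadjusted p under 0.05), so the difference rests on the model. Of the 54 G2/M genes, 12 were called with a higher change in DN-like cells, but 2 without cKO 1, 5 without cKO 2 and 0 with limma. In the other cells Notch1 was at 86.3 and 76.0 CPM in the controls against 115 and 122 CPM (log2 0.59, adjusted p = 0.0426 there), and the difference between its changes was −0.58 (edgeR adjusted p = 0.000202, limma adjusted p = 0.810). Gzma, a granule protease, had 351 and 250 CPM in the DN-like cells of the controls and 294 and 274 CPM in those of cKO, while in the other cells it had 125 and 108 CPM against 255 and 259 CPM (log2 1.18, adjusted p = 0.00558).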

How the data were processed

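Thymocytes of 2 control and 2 cKO mice were profiled with the 10x Genomics 3′ kit. The authors aligned reads to mm10 (GRCm38) with cellranger 6.1.1 and deposited matrices of raw UMI counts per gene and cell, neither normalized nor pooled. The DN-like cells and all gene lists were chosen with earlier results of these data known.

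UMIs of the DN-like cells were summed per library and tested with edgeR 4.0.16 (quasi-likelihood, TMM, filterByExpr, genotype only), with Benjamini-Hochberg adjustment over all genes tested and a threshold of 0.05, after checks on simulated data. The difference of changes was tested over the sums of DN-like and other cells, with library, part and genotype by part as terms. Shares were compared with two-sided exact permutation tests. Clusters came from 2000 variable genes, 20 components, 15 neighbours and a Leiden resolution of 0.5 (scanpy 1.11.5). Ratios of DN-like over other cells used a pseudocount of 1 CPM. Macrophage droplets had at least 10 UMIs of C1qa, C1qb and C1qc. Doublets were not removed. A Scrublet filter, DESeq2 1.42.0, limma 3.58.1, other filters on cells and leaving out each library were alternatives. The S and G2/M lists came with Seurat 5.3.0.

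Named genes were the rule genes and Tox4, of each of 25 lists the called and up to 4 most abundant genes, up to 10 called genes a direction with the largest change, the 10 smallest p-values of the difference and the 20 highest ratios over other cells. Further genes, such as Hes5, Ccnb1, Gata3 and the remaining called genes, were named after their values were seen. Promoters of RefSeq (GRCm38.p6) were matched by symbol.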

Additional observations from a re-analysis of the deposited data

Results flagged for a closer look

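For the genes below, the test of the difference itself found that the change from control to cKO in the DN-like cells differed from that in the other cells. Each value is that difference (log2, DN-like minus other cells). Genes beyond the 10 with the smallest p were chosen after their values were seen. In a limma test on 1 ratio per library none of them passed the threshold (adjusted p = 0.748 to 0.883).

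Among MHC class II and myeloid genes the difference was −3.45 for Cd74, −4.00 for H2-Eb1, −3.26 for H2-Aa, −2.42 for H2-Ab1 and −2.44 for S100a4. The B cell genes Cd79a (−11.1) and Ebf1 (−5.49) had 33 and 59 UMIs in the DN-like cells of control 2, of which 97.0% and 94.9% came from 1 cell, and the fitted size depends on the zeros elsewhere. Hbb-bs, a hemoglobin chain with a near copy, differed by 3.15, and 95.6% of its UMIs in cKO 1 came from 1 cell.

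Of the 54 G2/M genes, 12 were called with a higher change in DN-like cells (0.683% of all genes were called in either direction), 2 without cKO 1, 5 without cKO 2 and 0 with limma. Among genes of mitosis the difference was 1.48 for Ube2c, 1.07 for Prc1, 0.96 for Nusap1, 0.69 for Ccnb1, 0.68 for Cdk1 and 0.66 for Birc5.

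The difference was −0.58 for Notch1, the 1 gene called of 16 in the Notch machinery list, −0.74 for Myc, the 1 called of 5 other Notch targets, and −1.19 for Gzma, which is in none of the lists. Their fold changes in the other cells were 0.59, 0.52 and 1.18 on the log2 scale. Myc missed the threshold there (edgeR adjusted p = 0.197).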

How the results depend on the processing

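The cKO minus control share of DN-like cells (1.17 percentage points) stayed above 0 under each alternative run. It was 0.969 at 6 marker UMIs or more, 0.294 on thinned cells, 0.965 at a mitochondrial limit of 5%, 0.281 without cells holding Trdc UMIs, 0.569 among cells at or under the median of cell cycle UMIs, 0.869 among cells under 3 UMIs of each non-T list (chosen after seeing the data), 0.0458 among the 34 cells with no non-T UMI, where the groups overlapped (exact permutation p = 0.667), and 2.06 per 100 cells with Cd4 and Cd8 UMIs. Leaving out a library gave 1.07 to 1.27. The share of cells with cell cycle UMIs turned to −2.78 among cells with no non-T UMI, and ran from −2.93 (without control 2) to 6.16 without a library.

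Against 22 called genes, 37 were called with DESeq2 size factors, 80 with no filter on low counts, 5 by DESeq2 and 44 at 3 marker UMIs. edgeR called 0 on thinned cells, without the top 2.5% by UMIs, without Trdc cells and at equal cells and UMIs. In these settings 174 to 470 genes had an unadjusted p under 0.05, and the median G2/M change was 0.27, 0.64, 0.79 and 0.37 against 0.55. It called 1 gene among cells with no non-T UMI and 4 among cells of low cell cycle UMIs, with median G2/M changes of −0.14 and 0.07. Of the alternatives chosen after seeing the data, the largest cluster gave 1, cells under 3 non-T UMIs 14 and cells outside the 2 cycling clusters 0. Leaving out a library gave 26 to 89. The 91 differences became 0 with limma and 23 to 265 without a library: 265 without control 1, 23 without cKO 1 and 33 without cKO 2. With the replicate block 23 genes (19 shared) and 75 differences (72 shared) were called. The study speaks of 2 pairs of mice, but the labels do not say that a number marks a pair. The deviations of same-numbered libraries correlated at 0.0586 in the DN-like cells (9163 genes) and at 0.258 in the other cells (13897 genes).

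Tox4 (−0.20) was 0.0036 at a mitochondrial limit of 5% and −0.63 to 0.43 without a library. Directions turned for Mki67 (−0.36) and Top2a (−0.36) among the 34 cells with no non-T UMI, for H2-Aa (0.35) at 6 marker UMIs, and for Birc5 (−0.10), Tpx2 (−0.16) and Cdca8 (−0.37) outside the cycling clusters. Without a library, Junb ran from −2.36 to 1.60, the Fos difference from −2.66 to 0.12 and the Ebf1 difference from −11.3 to 6.73, each turning without control 2. The causes were not tested. Of 359 values of the 22 called genes under 21 settings, 220 kept direction and call, 133 lost the call and 6 turned. The DN-like sum of control 1 held the fewest UMIs (754072).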
